A study of Mus musculus with 5 samples.

Results

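The chaperone genes described here are the 84 of 24419 gene rows whose symbol belongs to the heat shock protein families (Hspa, Hspb, Hspd, Hspe, Hsph and Hsp90, with the binding proteins Hspbp1 and Hspbap1), to the J proteins (Dnaj), or to the CCT chaperonin (Cct2 to Cct8 with Tcp1). The rule uses names and no measured value, though it was set with earlier results of these data known. From textbook knowledge, 54 members were assigned to the cytosol and nucleus, 13 to the endoplasmic reticulum (ER) and secretory pathway, 9 to the mitochondrion, and 8 elsewhere or to no compartment. By family, 45 are J proteins, 14 are Hsp70 or Hsp110 proteins, 10 belong to the CCT group, 8 are small heat shock proteins counted with Hspb11, 3 are Hsp90 proteins, 2 form the mitochondrial chaperonin and 2 bind other heat shock proteins.

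RNA was measured in bone marrow-derived macrophages (BMMs), which are macrophages grown from mouse marrow cells with the growth factor M-CSF, here from the strain C57BL/6 at 50 ng/ml for 5 days. All cultures received LPS, a bacterial product that activates macrophages, at 100 ng/ml. They were then kept for 18 h with PBS (n = 2) or with 100 ng/ml Semaphorin 3G (Sema3G, n = 3), a secreted guidance protein that was produced in 293T cells as a recombinant protein with an Fc tag. No group without LPS and no group with an Fc protein alone was analysed here, and no source used here says that the samples came from separate cultures, so the p-values measure the spread between these samples, which may be technical.

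Each library counted unique molecular identifiers (UMIs) on the 3′ ends of polyadenylated RNAs, and values are given as CPM, UMIs of a gene relative to those of its whole library. Library totals lay between 1798469 and 2215855 UMIs. At this depth 3 counts, the limit that a count of 0 allows, are 1.35 to 1.67 CPM, which covers counting error only. All 7 macrophage markers looked up were present in every library at 27.8 CPM or more, and 8 of 15 markers of lymphocytes, neutrophils, mast cells, basophils and stromal cells were at 0 in all 5 libraries. The others included S100a8, and the summed neutrophil markers, from 103 to 166 CPM, overlapped between groups. The summed macrophage markers did not, at 12448 and 9670 CPM with PBS against 8791, 9429 and 9237 CPM with Sema3G, but Csf1r and Lyz2 made up most of this sum. Csf1r and Adgre1 were apart in the same direction, Itgam was apart in the other, and Lyz2, Cd14, Cd68 and Mrc1 overlapped, and their part in the results was not tested. Listed genes held 77.6% and 75.6% of the UMIs under PBS and 71.3%, 67.1% and 65.9% with Sema3G, and the ribosomal RNA precursor Rn45s held 1.01% and 3.19% against 6.31%, 7.40% and 7.88%. These shares enter every CPM value, and their part in the results below was not tested. The median log2 fold change over all 10088 genes tested was -0.22 on the CPM scale and -0.02 after TMM scaling, an edgeR method that sets libraries to a common level over most genes. Group medians are therefore also given minus the median of all genes.

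Chaperones bind proteins that are not folded and help them to fold, to assemble or to be removed. Hsp70 proteins do so in cycles of ATP hydrolysis that J proteins start and that Hsp110 proteins help to end by exchanging the nucleotide. Hsp90 acts later, on kinases and receptors among others, and the CCT ring folds actin and tubulin inside a closed chamber. Heat and damaged proteins raise many cytosolic members through the transcription factor Hsf1, which binds heat shock elements, while unfolded proteins in the ER raise Hspa5 and its partners through Atf6 and Xbp1, which act on ER stress response elements.

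The elements through which these pathways are known to act were looked up in the 250 bases before each RefSeq start (GRCm38.p6), where 69 members had a window among 27025 genes. They are shown so that the members with and without them can be recognised in the values below. The heat shock element was searched as GAANNTTCNNGAA (N is any base), as were the others on both strands, and was found in 3 members (4.35%), namely Dnajb6, Hspd1 and Hspe1, and in 0.514% of all genes. Its shorter form GAANNTTC, which the longer one contains, was found in 13 members (18.8%) and in 7.73% of all genes. The ER stress response element, searched as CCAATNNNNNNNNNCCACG, was found in Hspa5, Hsp90b1 and Dnajc3 (4.35% of members) and in 0.13% of all genes. In the following stretches of 30 bases, 5′ to 3′ on the strand of the gene, capitals mark the matched letters, which in Hspe1 are those of 2 overlapping matches. GENCODE M21 places the start of Hspa5 before the stretch shown, and that of Hspd1 before the stretch it shares with Hspe1.
Hspa1a, chr17:34972242-34972271, minus strand, the same 30 letters as Hspa1b: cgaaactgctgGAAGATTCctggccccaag
Hspe1, chr1:55088051-55088080, plus strand, shared with Hspd1 on the other strand: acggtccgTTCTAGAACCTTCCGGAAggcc
Hspa5, chr2:34772020-34772049, plus strand: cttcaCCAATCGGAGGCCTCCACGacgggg
Hsp90b1, chr10:86705632-86705661, minus strand: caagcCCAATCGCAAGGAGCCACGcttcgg
Dnajc3, chr14:118937822-118937851, plus strand: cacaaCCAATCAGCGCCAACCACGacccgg

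The 2 members that passed the test for a difference were Dnajb12 and Dnajb14, and none of the 3 motifs occurred in their windows, which says only that these letters are absent there. The 120 bases that end before the first annotated base of each gene, on the plus strand, are given for comparison in lower case throughout.
Dnajb12, chr10:59879436-59879555: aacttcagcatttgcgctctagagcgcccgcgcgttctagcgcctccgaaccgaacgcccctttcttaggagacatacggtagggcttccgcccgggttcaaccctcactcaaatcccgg
Dnajb14, chr3:137867555-137867674: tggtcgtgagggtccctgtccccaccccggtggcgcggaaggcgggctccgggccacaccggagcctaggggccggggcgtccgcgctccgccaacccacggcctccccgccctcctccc

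Of the 84 members, 65 had a mean of at least 1 CPM and were tested. Another 6 (Hspa1b, Hspa1l, Hspb2, Hspb7, Dnaja4 and Cct6b) had UMIs in at least 1 library but stayed under that level, and 13 were at 0 in all 5 libraries. The members at 0 were Hspb1, Hspb3, Hspb9, Hspa12a, Hspa12b, Cct8l1 and the J proteins Dnajb3, Dnajb7, Dnajb8, Dnajc5b, Dnajc5g, Dnajc6 and Dnajc22. Hspb1 encodes Hsp27, an abundant heat-inducible protein of many cell types. All 13 ER members and all 9 mitochondrial members were tested, against 39 of the 54 cytosolic and nuclear members. Of the tested members, 11 have an exon of another gene within their last 1000 bases, 1 of them on the same strand (Hspa13, with Gm15553). The others are Cct8 (Usp16), Tcp1 (Acat3), Dnaja1 (Smu1), Dnajb13 (Ucp2), Dnajc1 (Mllt10), Dnajc14 (Ormdl2), Dnajc19 (Fxr1), Dnajc30 (Bud23), Hspa1a (Gm20481) and Hspb6 (Lin37), where without a stated strand setting the reads of both genes cannot be told apart. The filter asks for a mean over all 5 libraries, so a gene high in 1 group could pass through that group alone, as Dnajb13 and Dnajc27 did through PBS.

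Levels spanned a wide range, with 22 members at 1 to 10 CPM, 35 at 10 to 100 CPM and 8 at 100 CPM or more in the mean of the 5 libraries. One tag is counted per 3′ end whatever the length of the RNA, so the levels of different genes were set side by side without a division by length, although priming may differ between genes. Hsp90ab1, the constitutive cytosolic Hsp90, was far above the others, with 1289 and 1540 CPM under PBS and 1253, 1193 and 1110 CPM under Sema3G. It held 32.0% of the mean CPM of all members and ranked 44 among all rows. Its heat-inducible relative Hsp90aa1 stood at 47.2 and 48.7 CPM against 46.2, 43.8 and 53.0 CPM, so that Hsp90ab1 was 27.3 and 31.6 times as high under PBS and 27.1, 27.2 and 20.9 times as high with Sema3G. The next levels were those of the ER chaperones Hspa5 (mean 302 CPM) and Hsp90b1 (230 CPM), the constitutive Hsp70 Hspa8 (170 CPM), the CCT subunits Cct7 (143 CPM) and Cct8 (119 CPM), the splicing-associated J protein Dnajc8 (115 CPM) and the Hsp110 protein Hspa4 (112 CPM). The order from Hspa8 downwards differed between libraries, and in Sema3G replicate 3 Dnajc8, at 157 CPM, stood above Hspa8, at 128 CPM, and Cct7, at 95.4 CPM.

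The question put to these genes was which of them differed between BMMs with and without Sema3G. By limma on log2(CPM + 1) with Benjamini-Hochberg adjustment over all genes tested, 2 of 65 members (3.08%) were higher at an adjusted p below 0.05 and 0 were lower, while 1.59% of all genes tested were higher and 0.218% lower. Before adjustment, 8 members (12.3%, against 6.83% of all genes tested) had a higher and 6 (9.23%, against 14.2%) a lower level at p under 0.05. The Sema3G values lay above both PBS values without overlap for 11 members (16.9%, against 11.9% of all genes tested) and below them for 13 of 65, Dnajb13 among them (against 26.5% of all genes tested), and the groups overlapped for 41. With edgeR's quasi-likelihood fit to UMI counts recovered from the CPM steps, 3 of 56 members were higher (5.36%, against 4.63% of the genes tested) and 0 were lower, and with TMM-scaled CPM 3 of 66 (4.55%, against 3.35%). In such bulk RNA, fewer cells with a gene and less of its RNA per cell cannot be told apart.

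**Figure D1:**
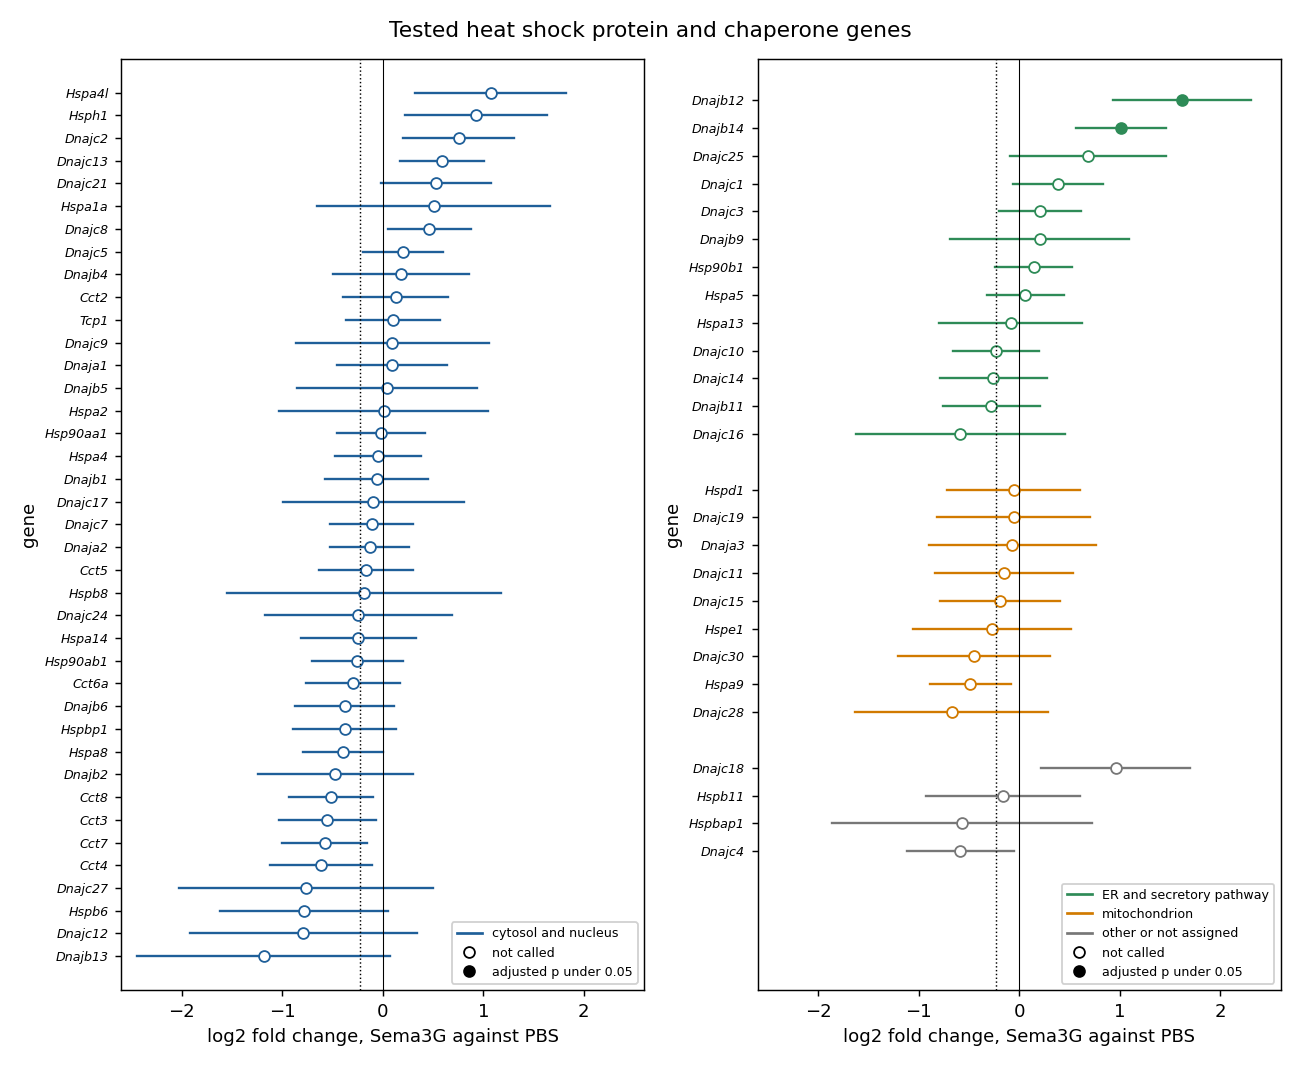
Log2 fold change on log2(CPM + 1), Sema3G against PBS, of the 65 tested members by compartment (points, with 95% intervals from limma as lines, n = 2 against 3). Filled points mark the 2 members with an adjusted p below 0.05, Dnajb12 and Dnajb14, and the dotted line marks the median of all genes tested, -0.22. Most intervals cross 0.

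Dnajb12 and Dnajb14 are closely related J proteins of the ER membrane, whose J domain faces the cytosol, where it works with Hspa8 in the removal of misfolded membrane proteins. Dnajb12 (ENSMUSG00000020109.13, chr10:59879556-59899302, plus strand, GENCODE M21 on GRCm38) had 9 and 12 UMIs under PBS and 28, 40 and 56 UMIs under Sema3G. In CPM these were 4.94 and 6.42 against 15.6, 18.1 and 25.8. All 3 Sema3G libraries were above both PBS libraries, and Dnajb12 rose from 5.68 ± 1.05 CPM (SD, n = 2) to 19.8 ± 5.34 CPM (SD, n = 3), a log2 fold change of 1.62 (standard error 0.33, 95% interval 0.93 to 2.30, limma adjusted p = 0.0170). No other annotated gene overlaps it.

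Dnajb14 (ENSMUSG00000074212.7, chr3:137867675-137916557, plus strand) had 50 and 60 UMIs under PBS and 121, 139 and 117 UMIs under Sema3G. In CPM these were 27.5 and 32.1 against 67.3, 62.7 and 53.9. The groups were again apart, and Dnajb14 rose from 29.8 ± 3.29 CPM (SD, n = 2) to 61.3 ± 6.78 CPM (SD, n = 3), a log2 fold change of 1.02 (standard error 0.21, 95% interval 0.57 to 1.47, limma adjusted p = 0.0217). Overlapping annotated genes of uncertain function lie within it, but none in its last 1000 bases, where 3′ tags fall. Dnajb14 was the higher of the pair in every library, 5.56 and 5.00 times the UMIs of Dnajb12 under PBS and 4.32, 3.48 and 2.09 times with Sema3G.

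Both calls were lost when any 1 of 3 libraries was left out. For Dnajb12 the limma adjusted p was 0.0640 without PBS replicate 1, 0.0808 without Sema3G replicate 2 and 0.168 without Sema3G replicate 3, with log2 fold changes of 1.46, 1.67 and 1.42. For Dnajb14 it was 0.0996, 0.161 and 0.0766 in the same order, with log2 fold changes of 0.91, 0.996 and 1.10. The fits with 1 PBS library assume that it varies like the Sema3G libraries.

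Dnajc18, a J protein with a membrane anchor that resembles these 2 in its layout, had 8 and 11 UMIs under PBS and 23, 24 and 20 under Sema3G. The groups did not overlap, and the log2 fold change was 0.96 (standard error 0.35), but the limma adjusted p was 0.145. Dnajc18 was not counted with the ER members. Of the ER J proteins, Dnajc1 and Dnajc25 were apart in the same direction beside the called pair, and are named after their values were seen. Dnajc1 was at 39.0 and 53.5 CPM against 65.1, 55.5 and 59.9 CPM (limma adjusted p = 0.305). Dnajc25 was at 4.40 and 9.64 CPM against 10.01, 10.4 and 13.4 CPM (limma adjusted p = 0.294). Apart in the lower direction were Dnajc14, at 23.6 and 25.7 CPM against 22.8, 19.0 and 19.8 CPM (log2 fold change -0.26, limma adjusted p = 0.569), and Dnajc10, while with CPM over listed genes other than Rn45s their log2 fold changes were 0.02 and 0.05. In all, 4 of the 10 ER J proteins were apart in the higher direction (against 11.9% of all genes tested), 2 in the lower (against 26.5%) and 4 overlapped. Among the ER J proteins as a whole, 2 of 10 rose (against 1.59% of all genes tested). Both called members fall in this cut of family by compartment, so the share restates these calls. The median log2 fold change of the 10 was 0.21, or 0.43 above that of all genes. Without Dnajb12 and Dnajb14 it was -0.01, or 0.21 above that of all genes. As a sum the 10 stood at 293 and 317 CPM under PBS and 368, 345 and 368 CPM under Sema3G, without overlap. Without Dnajb12 and Dnajb14 the sums of the other 8 were 261 and 278 CPM against 285, 264 and 288 CPM, which overlap. As a percentage of the UMIs on listed genes other than Rn45s they were 0.0341 and 0.0385 against 0.0438, 0.0443 and 0.0497, which do not. The sum of all members was also apart in the higher direction on that scale.

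**Figure D2:**
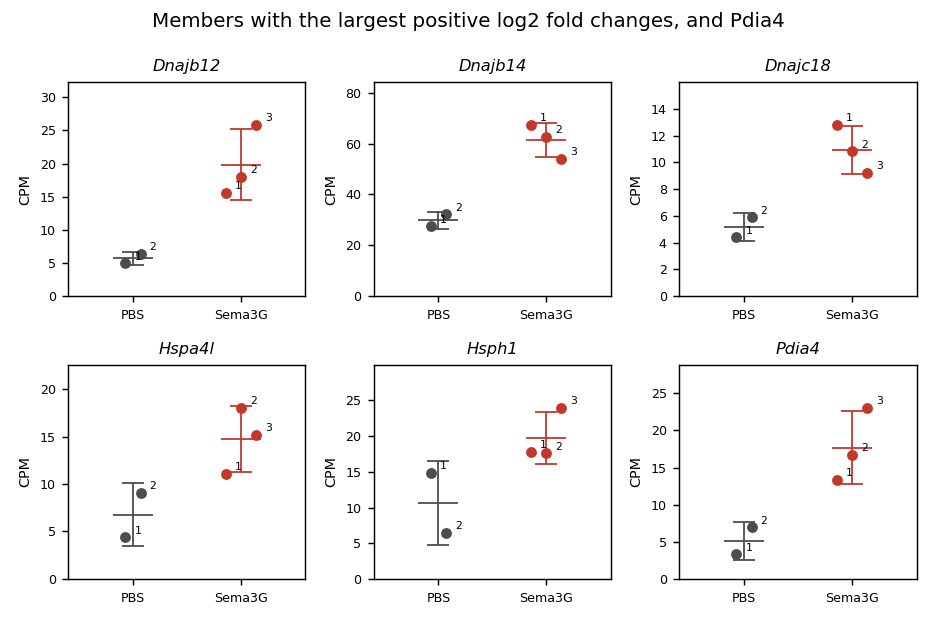
CPM in each library (points, numbered by replicate) with the mean and SD (bars) for the 5 members with the largest positive log2 fold changes and for the ER disulfide isomerase Pdia4, PBS (n = 2) and Sema3G (n = 3). Each axis starts at 0 and has its own scale. The groups are apart in every panel, and Dnajb12, Dnajb14 and Pdia4 passed the test.

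The ER lumen holds its own set of chaperones. Hspa5, the ER Hsp70 known as BiP and the usual readout of ER stress, had 562 and 521 UMIs under PBS and 582, 627 and 684 under Sema3G, which is 309 and 279 CPM against 324, 283 and 315 CPM. The groups overlapped, and the log2 fold change was 0.06 (95% interval -0.32 to 0.44, limma adjusted p = 0.863). It was 0.28 after TMM scaling and 0.35 with CPM over listed genes other than Rn45s, with limma adjusted p values of 0.414 and 0.290. Hsp90b1, the ER Hsp90 known as Grp94, stood at 219 and 211 CPM against 212, 232 and 273 CPM, with overlap and a log2 fold change of 0.14 (limma adjusted p = 0.672). Dnajc3, which works with Hspa5 and restrains the kinase Eif2ak3, stood at 75.3 and 81.9 CPM against 98.4, 79.9 and 95.4 CPM (log2 fold change 0.21, limma adjusted p = 0.540). These 3 members carry the ER stress response element shown above, and none of them passed the test.

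The other members known from ER stress did not pass either. Dnajb9, which is known to answer to Xbp1, had 13 and 8 UMIs under PBS and 9, 11 and 24 under Sema3G, so that 1 library, Sema3G replicate 3, was above the rest (log2 fold change 0.20, limma adjusted p = 0.805). Dnajb11 had 92 and 69 UMIs against 57, 81 and 84 (log2 fold change -0.28, limma adjusted p = 0.488). Hspa13, an Hsp70-like protein without a peptide-binding domain, had 29 and 25 UMIs against 15, 42 and 35 (log2 fold change -0.08, limma adjusted p = 0.910). Dnajc10, a disulfide reductase with a J domain, was at 57.1 and 63.7 CPM under PBS and 50.6, 56.4 and 47.0 CPM under Sema3G, apart in the lower direction (log2 fold change -0.23, limma adjusted p = 0.516). Over the 7 members known from ER stress, 0 passed the test and the median log2 fold change was 0.06, which is 0.29 above the median of all genes. Their summed CPM overlapped, at 734 and 691 against 730, 712 and 797. As a percentage of the UMIs on listed genes other than Rn45s the groups were apart, at 0.0958 and 0.0954 against 0.112, 0.119 and 0.137. The sum of all members was apart in the same direction on that scale.

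**Figure D3:**
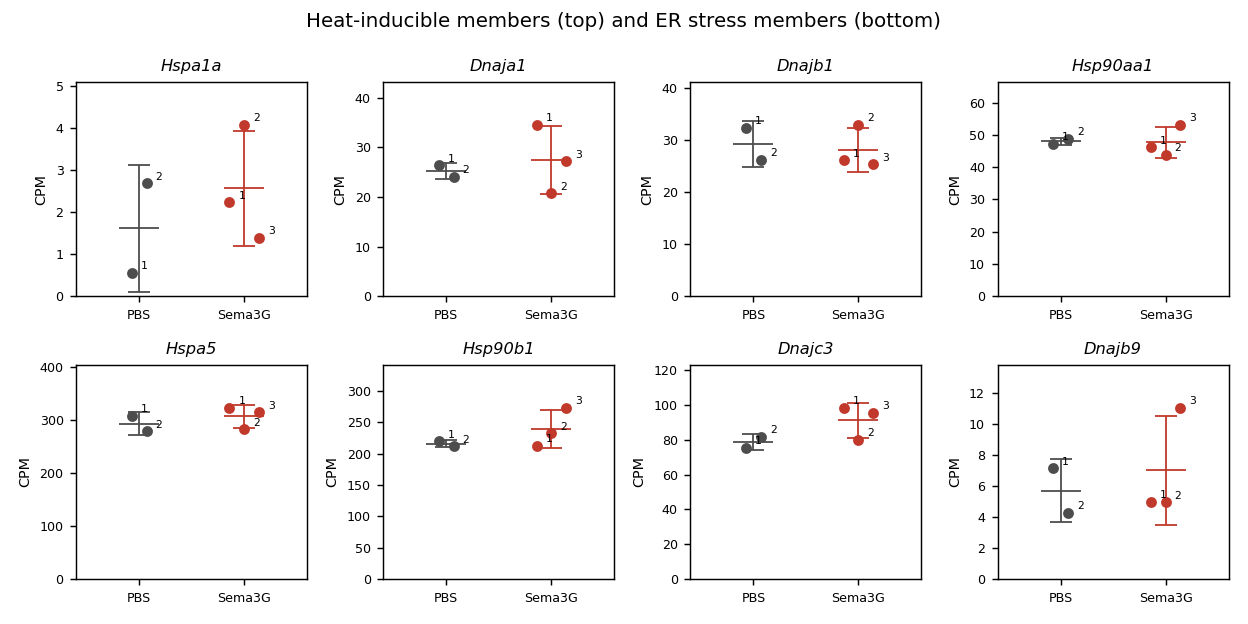
CPM in each library (points, numbered by replicate) with the mean and SD (bars) for 4 heat-inducible cytosolic members in the top row and 4 members known from ER stress in the bottom row, PBS (n = 2) and Sema3G (n = 3). The groups overlap in these 8 panels, while Hsph1 of the heat-inducible list and Dnajc10 of the ER stress list, not drawn here, did not overlap. Hspa1a stays under 5 CPM and Hspa5 lies between 279 and 324 CPM.

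In the cytosol, the members that heat induces most were low or did not pass the test. Hspa1a, the inducible Hsp70, had 1 and 5 UMIs under PBS and 4, 9 and 3 under Sema3G, and its near-identical neighbour Hspa1b had 1 and 2 against 0, 4 and 2. Reads of this pair can be shared between them, so neither level is certain. Hspb1 was at 0 in all libraries. The J proteins that serve Hsp70 in the heat shock response, Dnajb1 and Dnaja1, had 59 and 49 UMIs against 47, 73 and 55, and 48 and 45 UMIs against 62, 46 and 59, with log2 fold changes of -0.06 (limma adjusted p = 0.911) and 0.09 (limma adjusted p = 0.864). Hsp90aa1, with the levels above, had a log2 fold change of -0.01 (95% interval -0.45 to 0.42, limma adjusted p = 0.977). Of the 7 heat-inducible members looked up, which include the Hsp110 protein Hsph1, 5 were tested and 0 passed, and Hsph1 was the 1 whose groups were apart (11.9% of all genes tested were apart in this direction). Their median log2 fold change was 0.09, or 0.32 above that of all genes. Their sums overlapped in CPM, at 122 and 109 against 127, 121 and 132. As a percentage of the UMIs on listed genes other than Rn45s they did not, at 0.0159 and 0.0151 against 0.0195, 0.0203 and 0.0227. This was not particular to them, as the sum of all members was apart too, at 0.5477 and 0.5747 against 0.6157, 0.6312 and 0.6545. The related genes described below were apart as well, at 0.4159 and 0.4388 against 0.4422, 0.4426 and 0.4547. How many of all genes were apart on this scale was not counted.

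The largest positive log2 fold changes in the cytosol and nucleus belonged to the Hsp110 proteins Hspa4l and Hsph1, nucleotide exchange factors of Hsp70. Hspa4l had 8 and 17 UMIs under PBS and 20, 40 and 33 under Sema3G, and Hsph1 had 27 and 12 against 32, 39 and 52. Sema3G libraries were above PBS libraries without overlap for both. Their log2 fold changes of 1.07 (standard error 0.36) and 0.93 (standard error 0.34) had limma adjusted p values of 0.122 and 0.141. Without PBS replicate 2, which was the lower PBS library for Hsph1, its log2 fold change was 0.38, and without PBS replicate 1, the lower one for Hspa4l, that of Hspa4l was 0.62. The third Hsp110 protein, Hspa4, stood at 137 and 94.2 CPM against 97.9, 111 and 122 CPM, with overlap and a log2 fold change of -0.04 (limma adjusted p = 0.921).

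The main constitutive members had negative log2 fold changes on the CPM scale and did not pass the test. Hspa8, the main cytosolic Hsp70 of resting cells, stood at 211 and 186 CPM under PBS and 175, 151 and 128 CPM under Sema3G, apart in the lower direction (log2 fold change -0.40, standard error 0.19, limma adjusted p = 0.241). The log2 fold change was -0.18 after TMM scaling and -0.11 with CPM over listed genes other than Rn45s. Against Hspa5, its ER counterpart, Hspa8 had 0.683 and 0.666 times the UMIs under PBS and 0.540, 0.534 and 0.406 times with Sema3G. No scaling of the libraries changes this ratio, which was apart between groups. The pair was chosen with earlier results of these data known, and neither Hspa8 nor Hspa5 passed the test. How often the ratios of other gene pairs were apart was not counted. For Hsp90ab1 the log2 fold change was -0.25 (standard error 0.21, limma adjusted p = 0.501). It was -0.03 after TMM scaling, and above 0 with CPM over listed genes other than Rn45s.

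J proteins of the cytosol and nucleus numbered 26, of which 19 were tested and 0 were called. In 2 of the 19 the Sema3G libraries were all below the PBS libraries (against 26.5% of all genes tested), and in 13 the groups overlapped. In 4 of the 19 the Sema3G libraries were all above the PBS libraries (against 11.9%), and 3 of those 4 are named here after their values were seen. Dnajc13, which acts with Hspa8 on endosomes, had 93 and 91 UMIs under PBS and 133, 155 and 181 under Sema3G (log2 fold change 0.59, standard error 0.20, limma adjusted p = 0.122). It passed with edgeR's quasi-likelihood test (adjusted p = 0.0212) and with TMM-scaled CPM (limma adjusted p = 0.0252). Dnajc2, which works with Hsp70 on the ribosome, had 27 and 39 UMIs against 45, 71 and 76 (log2 fold change 0.75, limma adjusted p = 0.132). Dnajc8 had 174 and 168 UMIs against 205, 260 and 340 (log2 fold change 0.46, limma adjusted p = 0.195).

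Further cytosolic co-chaperones, named after their values were seen, did not pass either. Dnaja2 was at 97.8 and 107 CPM under PBS and 90.6, 88.5 and 101 CPM under Sema3G. Dnajc7, which binds Hsp70 and Hsp90, was at 70.3 and 72.8 CPM against 68.9, 71.8 and 58.5 CPM. Dnajb6, known to hold back protein aggregates and one of the genes with the heat shock element, was at 45.6 and 36.9 CPM against 37.8, 28.0 and 29.0 CPM. All 3 overlapped between groups, with limma adjusted p values of 0.714, 0.769 and 0.356.

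The negative log2 fold changes of the largest size were those of genes with few UMIs. Dnajb13, a J protein of sperm and cilia, had 6 and 2 UMIs under PBS and 1, 1 and 0 under Sema3G. Its mean was 2.18 CPM under PBS and 0.336 CPM under Sema3G, and that of Dnajc27 was 1.63 against 0.611 CPM, so that both were tested only because of their level under PBS and their fold changes carry no weight. Hspb6, a small heat shock protein of muscle, had 21 and 21 UMIs against 19, 13 and 8 (log2 fold change -0.78, limma adjusted p = 0.268). Dnajc12 had 16 and 4 UMIs against 2, 7 and 6, Dnajc27 had 4 and 2 against 0, 1 and 3, and the mitochondrial Dnajc28 had 18 and 12 against 16, 5 and 10, all with overlap between groups.

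The CCT chaperonin is a double ring built from 8 different subunits in equal numbers, encoded by Tcp1, Cct2 to Cct5, Cct6a, Cct7 and Cct8. Its RNAs were not equal. Cct7 was the highest subunit in every library, at 170 and 184 CPM under PBS and 147, 118 and 95.4 CPM under Sema3G, and the lowest was Tcp1, Cct2 or Cct4, depending on the library. The highest subunit stood 4.13 and 5.72 times above the lowest under PBS and 4.19, 3.40 and 3.14 times with Sema3G. Cct7 and Cct8 together held 46.1% and 56.7% of the CPM of the group under PBS and 50.2%, 46.1% and 41.8% with Sema3G, with overlap.

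Of the 8 subunits, 4 were below both PBS libraries in every Sema3G library (against 26.5% of all genes tested) and 4 overlapped, while 0 passed the test. Cct7 had 310 and 343 UMIs under PBS and 264, 262 and 207 under Sema3G (log2 fold change -0.58, standard error 0.20, limma adjusted p = 0.134). Cct8 stood at 142 and 146 CPM against 125, 93.0 and 88.0 CPM (log2 fold change -0.51, standard error 0.20, limma adjusted p = 0.158). Cct4 was at 68.7 and 43.9 CPM against 42.3, 34.7 and 30.4 CPM, and Cct3 at 63.2 and 47.6 CPM against 42.8, 38.8 and 30.9 CPM. Their log2 fold changes were -0.62 (limma adjusted p = 0.165) and -0.55 (limma adjusted p = 0.186). With 1 library left out these ran from -0.93 to -0.30 for Cct4 and from -0.75 to -0.35 for Cct3.

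The other 4 subunits were mixed around 0. Cct6a was at 68.7 and 46.6 CPM under PBS and 49.5, 42.0 and 46.6 CPM under Sema3G, and Cct5 at 64.8 and 47.1 CPM against 57.3, 43.3 and 47.9 CPM, with log2 fold changes of -0.30 and -0.17. Cct2 was at 58.2 and 32.1 CPM against 42.3, 46.5 and 54.4 CPM, and Tcp1 at 41.2 and 34.3 CPM against 35.0, 41.5 and 45.2 CPM, with log2 fold changes of 0.13 and 0.10. The limma adjusted p values of these 4 ranged from 0.444 for Cct6a to 0.822 for Tcp1. Cct6b, a form of testis, had 1 UMI in 1 library.

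Without Sema3G replicate 1, the Sema3G library with the highest Cct7 and Cct8, both passed in the lower direction, with log2 fold changes of -0.73 (limma adjusted p = 0.0263) and -0.67 (limma adjusted p = 0.0316), while the number of all genes called lower went from 22 to 553. The summed level of the CCT group was 677 and 581 CPM under PBS and 541, 458 and 439 CPM under Sema3G, without overlap. As a percentage of the UMIs on listed genes other than Rn45s, the same sums were 0.0885 and 0.0803 against 0.0832, 0.0767 and 0.0757, which overlap. The median log2 fold change of the 8 subunits was -0.41 and lay 0.18 below that of all genes. After TMM scaling it was -0.19.

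**Figure D4:**
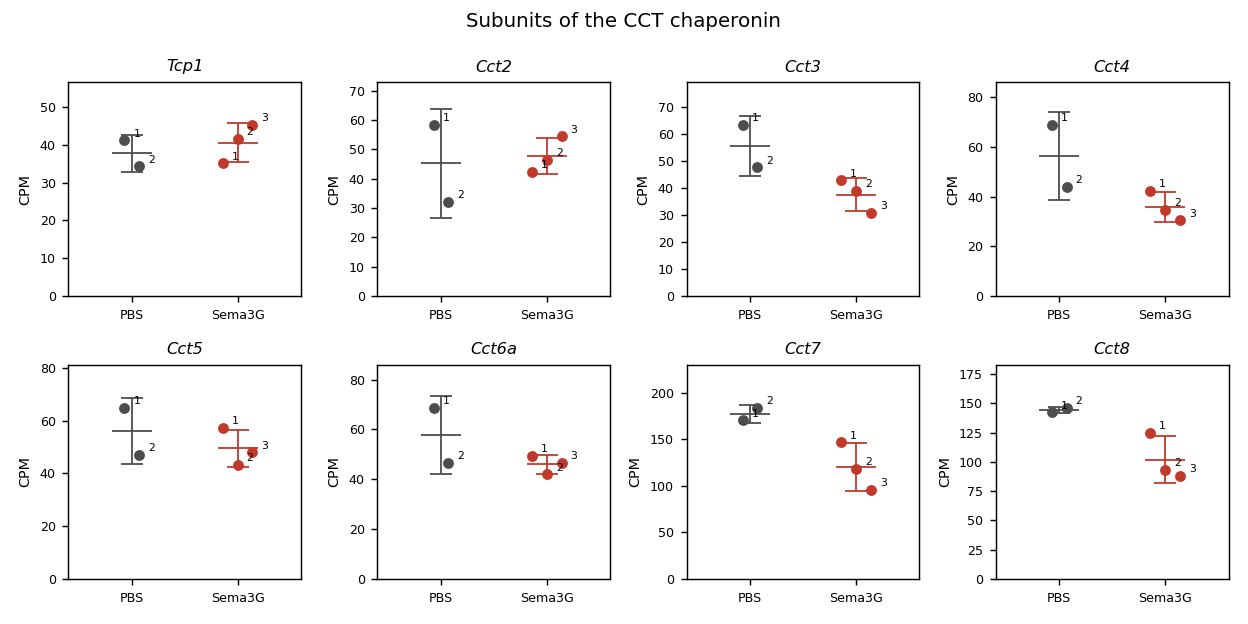
CPM in each library (points, numbered by replicate) with the mean and SD (bars) for the 8 tested CCT subunits, PBS (n = 2) and Sema3G (n = 3). Each axis starts at 0 and has its own scale. Every Sema3G library lies below both PBS libraries for Cct3, Cct4, Cct7 and Cct8, the other 4 subunits overlap, and none passed the test.

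No mitochondrial member passed the test. Hspa9, the mitochondrial Hsp70 that pulls proteins through the inner membrane, had 164 and 183 UMIs under PBS and 130, 145 and 137 under Sema3G, which is 90.1 and 98.0 CPM against 72.3, 65.4 and 63.2 CPM. It was the 1 mitochondrial member of 9 whose groups were apart, in the direction in which those of 26.5% of all genes tested were apart (log2 fold change -0.48, standard error 0.19, limma adjusted p = 0.168). Hspd1 and Hspe1, the barrel and the lid of the mitochondrial chaperonin, share the promoter with the heat shock element shown above. Hspd1 had 26 and 20 UMIs against 18, 30 and 27, and Hspe1 had 61 and 21 against 41, 27 and 32, with log2 fold changes of -0.05 (limma adjusted p = 0.945) and -0.27 (limma adjusted p = 0.697).

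The ratio of Hspe1 to Hspd1 UMIs was 2.35 and 1.05 under PBS and 2.28, 0.90 and 1.19 under Sema3G, so it differed as much within groups as between them. Dnajc15, a J protein of the import motor, had 51 and 30 UMIs against 33, 44 and 38 (log2 fold change -0.19, limma adjusted p = 0.728). PBS replicate 1 held the highest value of Hspe1 and Dnajc15. The log2 fold changes of the 9 members ran from -0.67 to -0.05 with a median of -0.19, which is 0.04 above that of all genes. Relative to all genes the median was 0.28 without PBS replicate 1 and -0.15 without PBS replicate 2.

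Summed over compartments, the ER members stood at 837 and 821 CPM under PBS and 912, 880 and 972 CPM under Sema3G. The cytosolic and nuclear members stood at 3094 and 3116 CPM against 2880, 2704 and 2646 CPM, and the mitochondrial members at 221 and 179 CPM against 168, 151 and 142 CPM. None of these sums overlapped between groups, the ER sum being higher and the other sums lower with Sema3G. Without Dnajb12 and Dnajb14 the ER sums were 805 and 782 CPM against 829, 799 and 892 CPM, which overlap. The sums are given as a description with no test. An exact two-sided permutation of 2 against 3 libraries allows no p below 0.2.

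The direction for the cytosol depended on the scale. As a percentage of the UMIs on listed genes other than Rn45s, the cytosolic and nuclear members held 0.404 and 0.431 under PBS and 0.443, 0.453 and 0.456 under Sema3G, which is apart in the higher direction, and the mitochondrial sums overlapped at 0.0288 and 0.0247 against 0.0259, 0.0252 and 0.0246. The ER sum was higher on this scale too, at 0.109 and 0.113 against 0.140, 0.147 and 0.168. Without Dnajb12 and Dnajb14 it was 0.105 and 0.108 against 0.128, 0.134 and 0.154. On this scale the sum of all members was apart in the higher direction as well. Median log2 fold changes were 0.14 for the ER, -0.11 for the cytosol and nucleus and -0.19 for the mitochondrion, which is 0.37, 0.11 and 0.04 above the median of all genes. After TMM scaling they were 0.36, 0.10 and 0.03. Relative to all genes, the median of the cytosol and nucleus was -0.013 when PBS replicate 2 was dropped. That of the ER kept its sign whichever library was dropped, at 0.23 to 0.49. Without Dnajb12 and Dnajb14 the ER median was 0.06, or 0.29 above that of all genes, and 0.28 after TMM scaling.

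**Figure D5:**
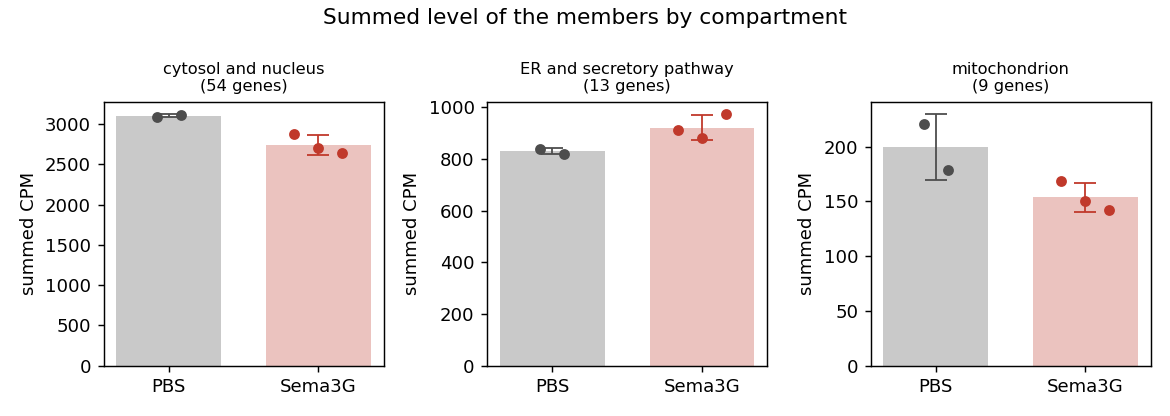
Summed CPM of all members of a compartment in each library (points), with the group mean (bars) and SD (error bars), PBS (n = 2) and Sema3G (n = 3), axes from 0. The ER sum of the 3 Sema3G libraries, from 880 to 972 CPM, exceeds both PBS sums, and the cytosolic and mitochondrial sums are lower on this scale.

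By family, the J proteins were the group whose sum was higher with Sema3G on the CPM scale, at 1025 and 979 CPM under PBS and 1113, 1081 and 1138 CPM under Sema3G. Without Dnajb12 and Dnajb14 the sums were 993 and 941 CPM against 1030, 1000 and 1058 CPM, still apart. The Hsp70 and Hsp110 sum overlapped, at 818 and 717 CPM against 740, 691 and 718 CPM. As a percentage of the UMIs on listed genes other than Rn45s it was apart in the higher direction, at 0.107 and 0.0990 against 0.114, 0.116 and 0.124, as was the sum of all members. The Hsp90 sum, of which Hsp90ab1 was the larger part, was 1556 and 1800 CPM against 1511, 1469 and 1435 CPM, apart on the CPM scale. On that other scale it overlapped, at 0.203 and 0.249 against 0.232, 0.246 and 0.248.

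Genes that act on or beside the chaperones but do not carry their names were read from fixed textbook lists, on which 69 genes had a row and 65 were tested. Of these, 1 was called higher (1.54%, against 1.59% of all genes tested) and 0 lower (against 0.218%). Before adjustment, 1 was higher (1.54%, against 6.83% of all genes tested) and 10 were lower (15.4%, against 14.2%) at p under 0.05. The gene called was Pdia4, an ER disulfide isomerase known to be raised in ER stress. Pdia4 had 6 and 13 UMIs under PBS and 24, 37 and 50 under Sema3G, and rose from 5.13 ± 2.59 CPM (SD, n = 2) to 17.7 ± 4.93 CPM (SD, n = 3), a log2 fold change of 1.64 (standard error 0.36, limma adjusted p = 0.0261). The call was lost without PBS replicate 1 (log2 fold change 1.20, limma adjusted p = 0.142), without Sema3G replicate 2 (1.67, limma adjusted p = 0.118), without Sema3G replicate 3 (1.45, limma adjusted p = 0.204) and with no filter on low values (1.64, limma adjusted p = 0.0568).

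The other ER folding enzymes did not pass, 1 of 15 having been called higher (against 1.59% of all genes tested). The median log2 fold change of all 15, Pdia4 included, was -0.38 and lay 0.16 below that of all genes. Of the 15, 2 were apart between groups in the higher direction (against 11.9% of all genes tested) and 5 in the lower (against 26.5%), and at an unadjusted p under 0.05 these were 1 and 5. The disulfide isomerase Pdia6, named after its values were seen, was at 87.9 and 85.7 CPM under PBS and 60.1, 40.6 and 55.8 CPM under Sema3G, apart in the lower direction (log2 fold change -0.74, standard error 0.21, limma adjusted p = 0.0828), and without Sema3G replicate 1 it passed (-0.85, limma adjusted p = 0.0262). P4hb, another disulfide isomerase, and Manf, a secreted ER stress protein, were also apart in the lower direction, with log2 fold changes of -0.42 and -0.56 (limma adjusted p = 0.188 and 0.176). The lectin chaperones Calr, at 223 and 239 CPM against 196, 186 and 230 CPM, and Canx, at 160 and 150 CPM against 179, 160 and 178 CPM, overlapped between groups. Hyou1, the Hsp110 protein of the ER, had 26 and 12 UMIs against 8, 16 and 5 (log2 fold change -1.01, limma adjusted p = 0.214). With 1 library left out its log2 fold change ran from -1.53 to -0.49. Sdf2l1, a partner of Dnajb11, had 76 and 68 UMIs against 58, 61 and 70 (log2 fold change -0.34, limma adjusted p = 0.393).

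None of the 9 unfolded protein response regulators and 3 tested heat shock transcription factors was called. Hsf1 had 21 and 22 UMIs under PBS and 16, 13 and 8 under Sema3G, apart in the lower direction (log2 fold change -0.89, limma adjusted p = 0.201), and Hsf2 had 41 and 40 against 33, 34 and 53, with overlap. Xbp1, whose splicing is not seen by 3′ tags, stood at 76.4 and 74.9 CPM against 69.5, 57.8 and 79.3 CPM (log2 fold change -0.15, limma adjusted p = 0.698). Atf4 stood at 214 and 226 CPM against 182, 174 and 148 CPM (log2 fold change -0.39, limma adjusted p = 0.229), and its target Ddit3 had 63 and 50 UMIs against 77, 51 and 42 (log2 fold change -0.18, limma adjusted p = 0.748).

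Of 19 tested cytosolic co-chaperones, 6 prefoldin subunits, which hand actin and tubulin to CCT, and 13 further mitochondrial chaperones and proteases, 0 were called. In that order, 5, 2 and 6 of them were apart in the lower direction (against 26.5% of all genes tested). Apart in the higher direction were 1, 0 and 0 (against 11.9%). Bag3, a heat-inducible partner of Hsp70, had 50 and 41 UMIs under PBS and 51, 68 and 43 under Sema3G (log2 fold change 0.07, limma adjusted p = 0.900). Lonp1, a protease of the mitochondrial matrix, had 79 and 74 UMIs against 59, 72 and 69, apart in the lower direction (log2 fold change -0.35, limma adjusted p = 0.365). The medians of the 3 lists were 0.12 above, 0.11 below and 0.12 below that of all genes.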

How the data were processed

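RNA of 5 BMM samples, 2 with PBS and 3 with Sema3G, was used. The authors made QuantSeq 3′ libraries with UMIs, mapped 75-base single-end reads to mm10, counted UMIs with Strand NGS and normalized them with edgeR (3.12 in the submitters' processing notes). They deposited CPM values, beside the p-value, q-value and ranking of their own comparison, which were not used. For the gene annotation, the strand setting and any filter, nothing is given in the sources used here.

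UMI counts were recovered from the steps of the CPM values (100% whole to within 0.01). The comparison was made in R 4.3.3 with limma 3.58.1 (trend option, two-sided) on log2(CPM + 1), over 10088 genes whose mean reached 1 CPM, and p-values were adjusted by Benjamini-Hochberg. This scale understates fold changes of low genes. The design named edgeR for counts and limma for CPM. Alternatives were pseudocounts of 0.1 and 5, no filter, a mean of 5 CPM, TMM scaling, CPM over listed genes other than Rn45s, edgeR's (4.0.16) quasi-likelihood test, DESeq2 (1.42.0), the replicate block, and each library left out. The fits were tested on simulated data, where more of the calls by limma and by edgeR were false than the adjusted p threshold allows for, so adjusted p-values near the threshold may be too small. Coordinates are from GENCODE M21 and sequences from RefSeq.

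Members and lists were chosen with earlier results of these data known. Named are the members called, the 4 highest per compartment, the CCT subunits, fixed heat-inducible and ER stress members, the 5 largest positive and negative log2 fold changes, and fixed related genes; others are said to have been chosen after their values were seen or are described by level or sequence. Date-like symbols stood in 27 rows, 15 of them tested.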

Additional observations from a re-analysis of the deposited data

How the results depend on the processing

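Dnajb12 and Dnajb14 passed the test under 11 of 14 alternatives and kept their direction under all of them. The number of members called higher was 6 with CPM over listed genes other than Rn45s, where Dnajc13, Dnajc2, Dnajc8 and Hspa4l passed too. On that scale 481 of 10520 genes tested were called higher, against 160 of 10088 in the main fit. With 1 Sema3G library left out, from 0 to 2 members were called higher. The number called lower was from 0 to 2 with 1 library left out, the 2 being Cct7 and Cct8 without Sema3G replicate 1. Over all genes, 182 were called, against 482 with CPM over listed genes other than Rn45s (481 higher and 1 lower), 353 with TMM scaling (350 and 3), 383 with edgeR's quasi-likelihood fit (380 and 3), 108 with no filter, and from 26 to 856 with 1 library left out. The mitochondrial median minus that of all genes ran from -0.15 to 0.28 with 1 library left out. The same difference for the cytosol and nucleus ran from -0.013 to 0.18, its sign turning when PBS replicate 2 was dropped. For the ER it ran from 0.23 to 0.49 and kept its sign. The cause of these changes was not tested. Depth limits what can be said of the 19 members under 1 CPM.

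Replicate numbers are shared by both groups, but no label says that they mark a common culture. Deviations from the group means correlated at 0.17 for number 1 and 0.11 for number 2 over 10088 genes. With the replicate number as a block, 573 genes were called (298 higher and 275 lower), and of the members again Dnajb12 and Dnajb14.

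Of 685 log2 fold changes of 50 named genes under the 14 alternatives, 71 had another sign than the value reported, over 22 genes, and 0 of these passed the test. With CPM over listed genes other than Rn45s these were Hsp90ab1 (0.039), Dnajc10 (0.054), Dnajc15 (0.093), Hspe1 (0.0064), Hspd1 (0.22), Cct5 (0.12), Dnajb1 (0.22), Hsp90aa1 (0.27), Dnajb11 (0.0089), Hspa13 (0.19), Hsf2 (0.082), Xbp1 (0.14), Ddit3 (0.10) and Calr (0.10). With edgeR's quasi-likelihood fit these were Dnajc10 (0.0059), Dnajc15 (0.014), Hspd1 (0.20), Cct5 (0.068), Dnajb1 (0.20), Hsp90aa1 (0.24), Hspa13 (0.26), Hsf2 (0.069), Xbp1 (0.11), Ddit3 (0.11) and Calr (0.062). With TMM scaling these were Dnajc15 (0.026), Hspd1 (0.16), Cct5 (0.052), Dnajb1 (0.16), Hsp90aa1 (0.20), Hspa13 (0.12), Hsf2 (0.014), Xbp1 (0.073), Ddit3 (0.034) and Calr (0.035). With DESeq2 these were Hspd1 (0.18), Cct5 (0.040), Dnajb1 (0.17), Hsp90aa1 (0.21), Hspa13 (0.23), Hsf2 (0.042), Xbp1 (0.081), Ddit3 (0.079) and Calr (0.034). With the replicate block these were Dnajb1 (0.0087), Dnajb9 (-0.13) and Ddit3 (0.045). With 1 library left out, the log2 fold changes of genes that changed sign ran from -0.0093 to 0.14 for Hspa5, -0.57 to 0.20 for Dnajc15, -1.02 to 0.48 for Hspe1, -0.24 to 0.14 for Hspd1, -0.029 to 0.23 for Tcp1, -0.29 to 0.55 for Cct2, -0.39 to 0.061 for Cct5, -0.12 to 1.13 for Hspa1a, -0.21 to 0.088 for Dnajb1, -0.081 to 0.27 for Dnaja1, -0.092 to 0.043 for Hsp90aa1, -0.13 to 0.52 for Dnajb9, -0.30 to 0.24 for Hspa13, -1.61 to 0.031 for Dnajc12, -0.51 to 0.045 for Ddit3 and -0.084 to 0.25 for Bag3.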
